A study of Mus musculus with 9 samples.

Results

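The genes described here are 4 parent genes of the mouse, Capza1, Ahcy, Rnps1 and Vcp, with the near-identical copies of them that lie elsewhere in the genome, Capza1-ps1, Gm4737, Rnps1-ps and Vcp-rs, and with Gm14226, a gene that lies beside Ahcy. These 9 genes were picked by name, out of 55291 in the table, because their levels differed in Ms4a6c knockout mice. That comparison is therefore given for them as a description, and nothing is read from its tests of these genes. For RNA-seq, the authors had used 9 mice, 3 in each of 3 groups, and sequenced RNA of the main olfactory epithelium. All were 8 to 12 weeks old. The paper's account of the RNA-seq names no strain for them. The first group was wild-type littermates. The second, Ms4a6c KO, carried a deletion of Ms4a6c made by homologous recombination. The third, Ms4a cluster KO, lacked the whole cluster of Ms4a genes after CRISPR/Cas9 deletion. Ms4a genes code for membrane proteins that the paper describes as odorant receptors. It places them in the necklace olfactory neurons, except Ms4a1, which it finds in other olfactory neurons. The sources used here do not tie single mice to litters.

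A retrocopy arises when a messenger RNA is copied back into DNA and inserted at a new place in the genome. It therefore lacks the introns of its parent, and most retrocopies lack the parent's promoter and decay into processed pseudogenes, though some stay expressed. A young retrocopy is so like its parent that many sequencing reads match both. RSEM, the program that made these counts, divides such reads between the genes by estimated weights, so an expected count need not be a whole number.

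The 4 parents are housekeeping genes. Capza1 codes for an alpha subunit of the capping protein that closes the barbed ends of actin filaments. Ahcy codes for adenosylhomocysteinase, which clears the by-product of methylation reactions in the methionine cycle. Rnps1 codes for an RNA-binding protein of the exon junction, which marks spliced messenger RNA. Vcp codes for the AAA ATPase also called p97, which extracts ubiquitinated proteins for degradation.

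The copies and their parents could be separated at few bases, which are shown here to give the scale of that likeness. Positions are those of mouse build GRCm38. The first difference in Capza1 lies in exon 7 at chr3:104834120-104834160, on the minus strand, and is matched in Capza1-ps1 at chr1:105456505-105456545, on the plus strand. The Ahcy stretch is in exon 5 at chr2:155064878-155064918, minus strand, and the Gm4737 stretch at chr16:46154519-46154559, minus strand. The Rnps1 stretch is in exon 5 at chr17:24420290-24420330, plus strand, and the Rnps1-ps stretch at chr6:7983104-7983144, minus strand. The Vcp stretch is in exon 13 at chr4:42983500-42983540, minus strand, and the Vcp-rs stretch at chrX:104346676-104346716, minus strand. All 4 parent stretches are coding. Each is printed 5′ to 3′ on the strand of the gene, and capitals mark the bases that differ between parent and copy.
Capza1: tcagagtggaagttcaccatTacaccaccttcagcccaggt
Capza1-ps1: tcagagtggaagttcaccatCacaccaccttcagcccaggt
Ahcy: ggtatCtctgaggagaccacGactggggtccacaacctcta
Gm4737: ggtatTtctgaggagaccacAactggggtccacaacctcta
Rnps1: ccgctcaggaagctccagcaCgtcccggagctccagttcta
Rnps1-ps: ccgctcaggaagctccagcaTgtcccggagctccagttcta
Vcp: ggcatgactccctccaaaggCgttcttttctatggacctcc
Vcp-rs: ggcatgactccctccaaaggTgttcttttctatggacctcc

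Capza1 spans chr3:104822779-104864505 on the minus strand, with 10 exons and 286 codons. Capza1-ps1, annotated as a pseudogene of 2 exons at chr1:105455971-105458829, aligned to it over 2859 bases at 99.55% identity, with 8 substitutions and 3 gaps. Its annotated transcript of 2858 bases takes up nearly all of that span, so the break between its exons is not of intron length. The substitutions, written as the parent's base, its position from 1 at the 5′ end of the parent transcript, and the copy's base, were T670C, A791G, A887G, T1012C, C1642T, C2226T, G2280A and C2636T, of which 3 are coding. The copy covers 89.4% of the parent transcript. Read from the parent's start codon, its annotated transcript has an open frame of 290 codons, against 286 in the parent, so the frames end at different places.

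Ahcy spans chr2:155059310-155074497 on the minus strand, with 10 exons. Gm4737, at chr16:46152985-46155077, has 1 exon and is annotated as protein-coding. It aligned to Ahcy over 2083 bases at 99.71% identity with 6 substitutions and no gap, namely C564T, G579A, C1155T, C1173T, A1712T and G1716T. Its open frame of 432 codons is as long as that of Ahcy, and it covers 81.9% of the parent transcript.

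Rnps1 spans chr17:24414565-24425901 on the plus strand. Rnps1-ps, a processed pseudogene of 1 exon at chr6:7982541-7983383, is the shortest of the copies. It aligned over 843 bases at 99.41% identity, covering 43.9% of the parent transcript, with C535A, C624T, T853C, T874C and C1048T, all coding. The annotated copy begins at codon 25 of the parent and holds no stop codon over 281 codons, to its end.

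Vcp spans chr4:42979963-43000507 on the minus strand, with 17 exons and 806 codons. Vcp-rs, a processed pseudogene of 1 exon at chrX:104345829-104348234, aligned over 2421 bases at 99.05% identity, with 1 gap of 15 bases and with G899A, T1019C, T1814C, T1817C, C1868T, A2087T, C2142T and T2486C. All 8 are coding, and the frame runs for 801 codons before a stop.

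**Figure D1:**
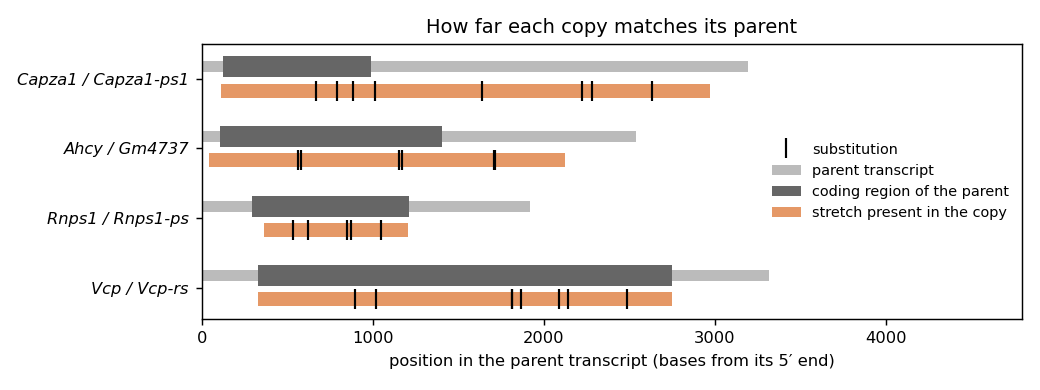
Each parent transcript (grey, with its coding region dark) and the stretch present in its copy (orange), drawn to scale in bases from the parent's 5′ end, with substitutions as ticks. Capza1-ps1 and Gm4737 reach far past the coding region, whereas Rnps1-ps and Vcp-rs end with it.

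Long stretches of each copy held no difference at all. The longest identical run was 583 bases in Capza1-ps1, 575 in Gm4737, 228 in Rnps1-ps and 794 in Vcp-rs. Of all 100-base windows of the copy, 67.85% were found unchanged in the parent for Capza1-ps1, 82.6% for Gm4737, 44.89% for Rnps1-ps and 71.78% for Vcp-rs. The paired reads and inserts that the paper describes are longer than these windows, so these are not shares of reads that match both genes.

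Gm14226 was listed with Ahcy, but its sequence did not match. None of the 3224 words of 20 bases in its transcript occurs in Ahcy, and no alignment of at least 300 bases at 90% identity was found. It is a gene of 2 exons and 686 codons at chr2:155018266-155027104, on the opposite strand to Ahcy and 32.2 kb from it. It is therefore described here as a neighbour of Ahcy and not as a copy.

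Library depth ran from 13954591 to 21987174 expected counts. Levels are given as CPM, the counts scaled to a common library size, after TMM scaling, which sets libraries to each other on the assumption that most genes keep their level. At these depths 3 counts, taken as the limit of detection, came to between 0.123 and 0.299 CPM. The targeted gene, Ms4a6c, was counted at 53.95, 90.34 and 81.53 in wild-type, at 0, 2.35 and 2 in Ms4a6c KO and at 0 in all 3 Ms4a cluster KO mice. Olfactory neuron genes were present in every mouse, with Omp, the marker of mature olfactory neurons, at 4017 to 5214 CPM. In wild-type mouse 1 and Ms4a cluster KO mouse 2, Bpifb9b, a secreted gland product, took 10.4% and 10.2% of the counts, and their TMM factors were 0.702 and 0.704 against 1.07 to 1.13 elsewhere.

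Capza1 stood at 146, 149 and 151 CPM in the wild-type mice and at 60.98, 58.1 and 54.6 CPM in the Ms4a6c KO mice. In the Ms4a cluster KO mice it stood at 143, 142 and 140 CPM. The 3 Ms4a6c KO mice were far below the rest, with a log2 fold change against wild-type of -1.36 (SE 0.06). Capza1-ps1 moved the other way. It was at 2.12, 1.83 and 1.87 CPM in wild-type mice and at 58.1, 58.9 and 60.8 CPM in Ms4a6c KO mice, a log2 fold change of 4.93 (SE 0.10). Ms4a cluster KO mice, at 2.33, 2.04 and 2.07 CPM, overlapped the wild-type mice.

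Ahcy showed the same arrangement. Its level was 36.8, 37.7 and 37.8 CPM in wild-type mice, 12.5, 12.1 and 11.6 CPM in Ms4a6c KO mice, and 39.0, 37.3 and 33.9 CPM in Ms4a cluster KO mice. The log2 fold change in the Ms4a6c KO was -1.63 (SE 0.07). Gm4737 was low in wild-type mice, at 0.185, 0.824 and 0.967 CPM, and in Ms4a cluster KO mice, at 0.850, 0.500 and 0.972 CPM, with 2.6 to 19.4 counts in each of these 6 mice. In Ms4a6c KO mice it reached 33.1, 34.0 and 31.8 CPM, above Ahcy in the same mice.

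Gm14226, the neighbour of Ahcy, was nearly absent from the Ms4a6c KO mice. It had 59, 94 and 108 counts in wild-type mice, 135, 67 and 114 counts in Ms4a cluster KO mice, and 1, 0 and 0 counts in Ms4a6c KO mice. From 1 count against 261, its level was 295-fold lower, with an exact 95% counting interval of 52.5-fold to 11710-fold that covers counting error only. All other mice held it at 4.19 CPM or more, so the groups did not overlap. Of all tested genes, 8.55% also lay below the wild-type range in all 3 Ms4a6c KO mice.

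Rnps1 differed less than Ahcy on the log2 scale, though more in CPM. It was at 73.9, 79.8 and 80.04 CPM in wild-type mice and at 40.3, 39.1 and 40.1 CPM in Ms4a6c KO mice, a log2 fold change of -0.97 (SE 0.06). Ms4a cluster KO mice held 83.5, 74.0 and 80.6 CPM. Rnps1-ps was at 0.389, 0.418 and 0.563 CPM in wild-type mice and at 26.8, 24.7 and 25.3 CPM in Ms4a6c KO mice. It was at 0.332, 0 and 0.597 CPM in Ms4a cluster KO mice, so that no wild-type or Ms4a cluster KO mouse had more than 11.91 counts of it, against 397 or more in the Ms4a6c KO mice.

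Vcp was the most abundant of the 9 genes in CPM, and the one with the smallest log2 fold change in the Ms4a6c KO. It was at 514, 511 and 497 CPM in wild-type mice, 393, 384 and 362 CPM in Ms4a6c KO mice and 516, 485 and 517 CPM in Ms4a cluster KO mice, with a log2 fold change of -0.42 (SE 0.07) in the Ms4a6c KO. Vcp-rs was at 5.06, 5.07 and 4.75 CPM in wild-type mice, 81.3, 79.2 and 70.4 CPM in Ms4a6c KO mice and 5.40, 5.01 and 3.47 CPM in Ms4a cluster KO mice. Its log2 fold change in the Ms4a6c KO was 3.96 (SE 0.14), beside 5.55 (SE 0.29) for Gm4737 and 5.77 (SE 0.36) for Rnps1-ps.

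**Figure D2:**
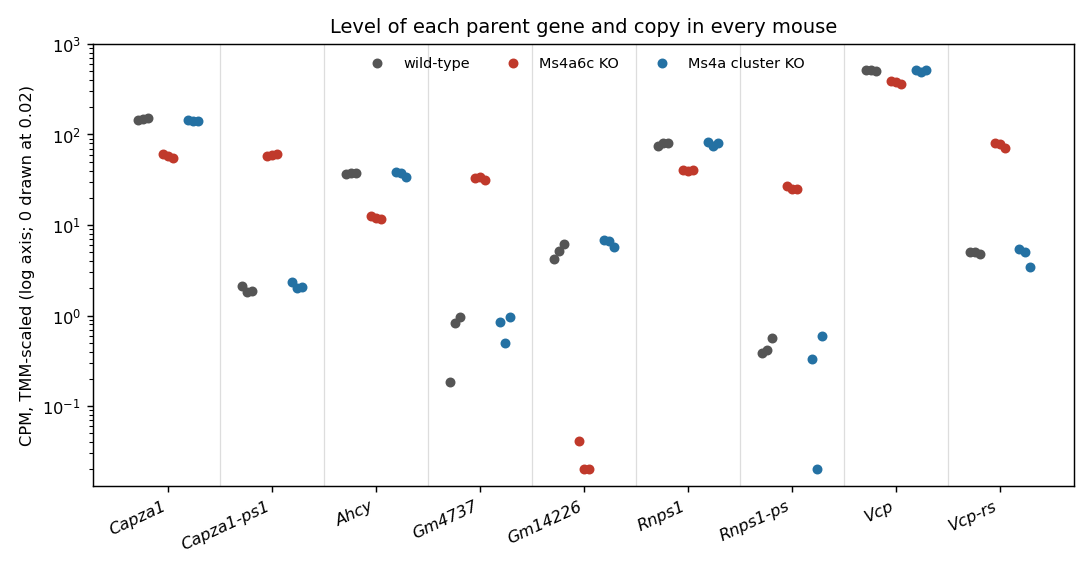
CPM of the 9 genes in every mouse (log axis, 1 point per mouse, values of 0 drawn at 0.02). In the Ms4a6c KO (red) each of the 4 copies lies above, and each of the 4 parents below, the wild-type (grey) and Ms4a cluster KO (blue) mice.

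The 9 genes were chosen for differing in the Ms4a6c KO, so passing a test there was built into the choice. In that contrast all 9 passed an adjusted p of 0.05 in edgeR, where 0.435% of all tested genes did. They also all passed in DESeq2, where 1.84% of the genes to which it gave an adjusted p did. All 9 lay outside the wild-type range in all 3 Ms4a6c KO mice, 4 above it and 5 below it, where 18.3% of all tested genes did (9.72% above and 8.55% below). With plain library size as the scaling 6 of the 9 passed, and with a single mouse left out 8 or 9 did. Since the genes were picked for this contrast, nothing is read from these counts. Because the tissue was sequenced in bulk, fewer cells of a type and less RNA per cell cannot be told apart.

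Per kilobase of transcript, the copies reached or passed their parents in 3 of the 4 pairs. In Ms4a6c KO mice Gm4737 stood at 15.8 CPM per kb against 4.74 for Ahcy, Rnps1-ps at 30.4 against 20.7 for Rnps1, and Capza1-ps1 at 20.7 against 18.1 for Capza1. Vcp-rs, at 32.0 CPM per kb, stayed below Vcp at 115. In wild-type mice no copy reached more than 2.11 CPM per kb, and the parents lay between 14.5 and 155.

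The share of a pair's expected counts given to the copy does not depend on how libraries are scaled. For Capza1-ps1 it was 1.29% ± 0.127 (SD, n = 3) in wild-type mice and 48.8%, 50.4% and 52.7% in Ms4a6c KO mice. For Gm4737 it was 0.499%, 2.14% and 2.49% in wild-type mice and 72.6%, 73.8% and 73.2% in Ms4a6c KO mice. For Rnps1-ps it was 0.581% ± 0.102 (SD, n = 3) and then 39.97%, 38.7% and 38.7%. For Vcp-rs it was 0.968% ± 0.0184 (SD, n = 3) and then 17.1%, 17.1% and 16.3%. The 3 Ms4a6c KO mice lay within 4 percentage points of each other in every pair, while the pairs differed widely from one another.

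**Figure D3:**
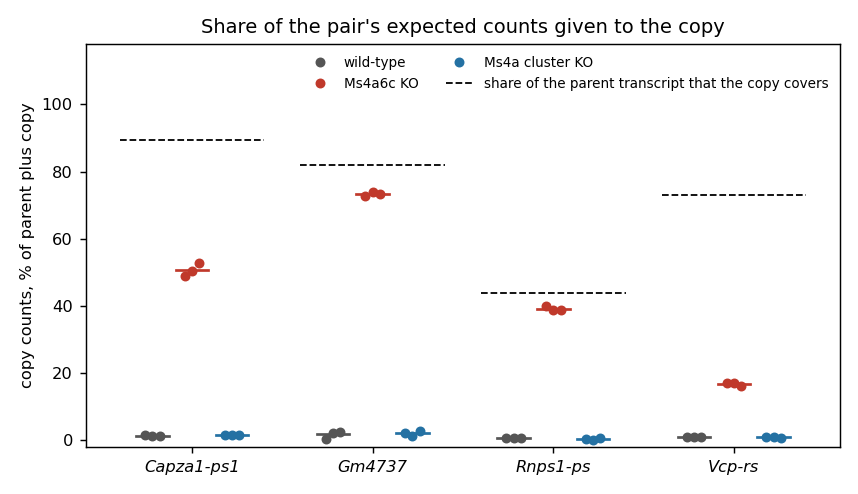
Copy counts as a percentage of parent plus copy in each mouse (points) with group means (short lines); the dashed line gives the share of the parent transcript that the copy covers. The share in Ms4a6c KO mice runs from 16.3% for Vcp-rs to 73.8% for Gm4737, and is under 3% in all other mice.

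The sum of parent and copy shows how far the higher level of the copy matched the lower level of the parent. Against wild-type, Capza1 differed in the Ms4a6c KO by -90.7 CPM and its copy by 57.3, leaving the sum at -33.4 CPM, or -22.2%. Rnps1 differed by -38.1 CPM and its copy by 25.2, leaving the sum at -12.9 CPM, or -16.5%. Vcp differed by -128 CPM and its copy by 72.0, leaving the sum at -55.6 CPM, or -10.8%. In these 3 pairs the parent's deficit was larger than the copy's gain. Ahcy was the other way round, at -25.4 CPM against 32.3 for Gm4737, which left the sum at 6.92 CPM, or 18.2%, above wild-type.

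By mouse, Capza1 with its copy summed to 148, 151 and 153 CPM in wild-type mice and to 119, 117 and 115 CPM in Ms4a6c KO mice, a log2 fold change of -0.36 (SE 0.05). Rnps1 with its copy summed to 74.3, 80.2 and 80.6 CPM and then to 67.1, 63.8 and 65.4 CPM, a log2 fold change of -0.26 (SE 0.06). Vcp with Vcp-rs summed to 519, 516 and 502 CPM and then to 475, 463 and 432 CPM, a log2 fold change of -0.17 (SE 0.07). In each of these pairs all 3 Ms4a6c KO mice were below all 3 wild-type mice, where 8.55% of all tested genes were. Scaled by the plain library size, which moved the median of all genes by 0.18, the sums were at -0.18 for Capza1, -0.0881 for Rnps1 and 0.0181 for Vcp, so the sizes of all 3 and the direction of the Vcp sum rest on the scaling. Relative to the median of all genes under that scaling they were at -0.36, -0.27 and -0.16.

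Ahcy with Gm4737 summed to 37.0, 38.5 and 38.8 CPM in wild-type mice and to 45.6, 46.1 and 43.4 CPM in Ms4a6c KO mice. The log2 fold change was 0.24 (SE 0.07). All 3 Ms4a6c KO mice were above all 3 wild-type mice, where 9.72% of all tested genes were. With Gm14226 added, the sums overlapped, at 43.3 ± 1.91 CPM in the wild-type group and 45.0 ± 1.46 CPM in the Ms4a6c KO group (SD, n = 3), with a log2 fold change of 0.06 (SE 0.07).

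**Figure D4:**
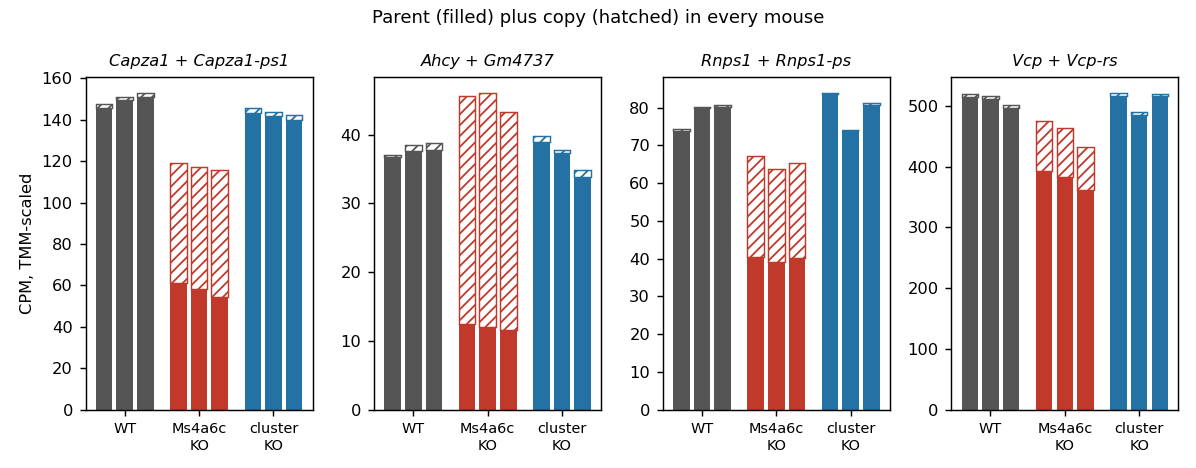
CPM of parent (filled) and copy (hatched), stacked, in each of the 9 mice. The hatched part is a sliver in wild-type and Ms4a cluster KO mice and 70.4 to 81.3 CPM of the Vcp bars in the Ms4a6c KO; the full bars of the Ms4a6c KO mice are lower in 3 pairs and higher in Ahcy plus Gm4737.

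The fractional part of the expected counts bears on how reads were divided within the pairs. Capza1 was a whole number, within a tolerance of 0.025, in 0 of 9 mice, and so were Capza1-ps1, Ahcy, Vcp and Vcp-rs; Rnps1 and Rnps1-ps were whole in 1 mouse each and Gm4737 in 3. Of the values of all tested genes, 22.2% were not whole within the same tolerance of 0.025. Rnps1 and Rnps1-ps nevertheless summed to a whole number in 9 of 9 mice, for example 1045, 1446 and 1417 counts in the wild-type mice and 1638, 1029 and 1026 counts in the Ms4a6c KO mice. Vcp and Vcp-rs did so in 6 of 9 mice. Gm14226 was whole in 9 of 9 mice on its own.

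For Capza1 and Ahcy the sums became whole in all 9 mice once other near-identical copies were added. Capza1 with Capza1-ps1 summed to a whole number in 6 of 9 mice, and in 9 of 9 once Gm5920 was added, a copy with 96.27% identity to Capza1. Ahcy with Gm4737 did so in 0 of 9 mice, and in 9 of 9 once Gm9826 was added, a copy with 99.15% identity to Ahcy. In the first Ms4a6c KO mouse, for example, Ahcy had 304.87 counts, Gm4737 808.79 and Gm9826 3.34, and together they came to 1117. This addition of Gm5920 and Gm9826 was chosen after their values had been seen. Which reads were divided was not analysed here.

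Those other copies were few and low. Besides the 4 named above, 4 more genes matched a parent over at least 300 bases at 90% identity, all of them copies of Capza1 or Ahcy, and 2 of them had counts enough to be tested. Gm9826 was at 0.294 ± 0.0867 CPM in the wild-type group and 0.0934 ± 0.0377 CPM in the Ms4a6c KO group (SD, n = 3), with an edgeR adjusted p of 0.414. Gm5920 had 0 counts in all wild-type mice and 10.49, 3.23 and 3.22 counts in Ms4a6c KO mice, with an edgeR adjusted p of 0.194. Its counts in Ms4a6c KO mice alone made it testable. At these low counts both genes had an unadjusted edgeR p under 0.05 in the Ms4a6c KO, in opposite directions. Of all tested genes, 10.5% did. Gm5638 and Gm4757 had 0 counts in every mouse.

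The Ms4a cluster KO mice, which played no part in the choice of genes, allowed a test, though it shares its wild-type mice with that choice. In edgeR's test of quasi-likelihood, 0 of the 9 genes passed an adjusted p of 0.05, where 0.0258% of all tested genes did. An unadjusted p under 0.05 was reached by 0 of them and by 4.93% of all tested genes. DESeq2 called 0 of them, where it called 0.0778% of the genes to which it gave an adjusted p. The log2 fold change was -0.07 (SE 0.05) for Capza1, -0.03 (SE 0.07) for Ahcy, 0.03 (SE 0.06) for Rnps1 and -0.0045 (SE 0.07) for Vcp. For the copies it was 0.15 (SE 0.11) in Capza1-ps1, 0.21 (SE 0.38) in Gm4737, -0.31 (SE 0.52) in Rnps1-ps and -0.11 (SE 0.15) in Vcp-rs, and for Gm14226 it was 0.29 (SE 0.22). The edgeR adjusted p lay between 0.971 and 1. Only Capza1 lay outside the wild-type range in all 3 mice, at 142 ± 1.68 against 149 ± 2.79 CPM (SD, n = 3), as 5.15% of all tested genes also lay below it.

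The sums and shares of the Ms4a cluster KO were tested in the same way. None of the 4 sums passed in edgeR, where 0.0258% of all rows did, and none had an unadjusted p under 0.05, with adjusted p from 0.971 to 1. The Ahcy sum among them included Gm14226. Without it, the log2 fold change was -0.0235 (SE 0.07, edgeR unadjusted p = 0.729). The Capza1 sum, at 144 ± 1.82 against 151 ± 2.64 CPM (SD, n = 3), had a log2 fold change of -0.07 (SE 0.05). The copy share differed from wild-type by 0.199 percentage points for Capza1-ps1 (two-sided exact permutation p = 0.2, adjusted p = 0.4 over 4 families) and by 0.371 for Gm4737 (exact permutation p = 0.7). For Rnps1-ps it differed by -0.204 points (exact permutation p = 0.5, adjusted p = 0.667) and for Vcp-rs by -0.0595 points (exact permutation p = 1). With Gm14226 counted beside Gm4737, the share was 16.3% against 13.4% of the Ahcy family (exact permutation p = 0.1, adjusted p = 0.4 over 4 families). With 3 mice against 3 this test cannot go below 0.1. The 2 knockouts were not tested against each other, because the Ms4a6c KO mice had served to choose the genes.

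**Figure D5:**
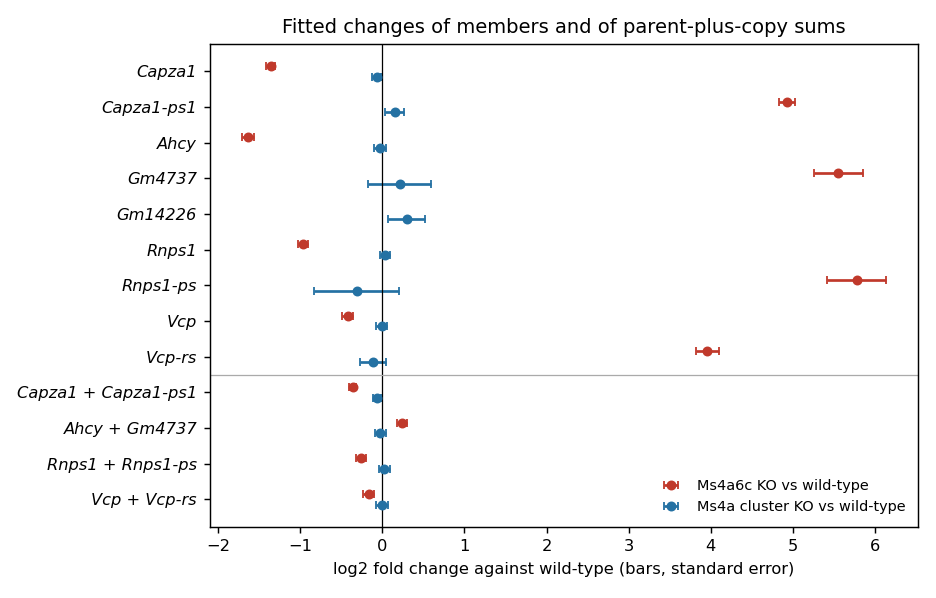
Log2 fold change against wild-type with its standard error, for the 9 genes (top) and for the sums of parent and copy (bottom). Ms4a6c KO points (red) spread from -1.63 to 5.77 among the genes and from -0.36 to 0.24 among the sums, while Ms4a cluster KO points (blue) lie between -0.31 and 0.29; Gm14226 is not drawn for the Ms4a6c KO, where 1 count was left.

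Genes that work with the 4 parents were listed by function. Among 22 tested genes of actin capping, 21 of the methionine cycle, 22 of the exon junction and RNA export and 34 of VCP cofactors and endoplasmic reticulum degradation, 0 passed an adjusted p of 0.05 in edgeR in either knockout, where 0.435% of all tested genes did in the Ms4a6c KO and 0.0258% in the Ms4a cluster KO. At an unadjusted p under 0.05 there were 2, 2, 2 and 1 genes in the Ms4a6c KO and 1, 1, 0 and 2 in the Ms4a cluster KO. Over the 99 genes that is 7.07% and 4.04%, beside 10.5% and 4.93% of all tested genes. DESeq2 called 1 gene in all, Rbm8a in the Ms4a6c KO. Over all the genes to which it gave an adjusted p, it called 1.84% in the Ms4a6c KO and 0.0778% in the Ms4a cluster KO. The median log2 fold changes in the Ms4a6c KO were -0.02, -0.04, -0.0035 and -0.03, beside -0.0016 over all tested genes.

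Fitted log2 fold changes in the Ms4a6c KO ran from -0.54 to 0.17 in the actin capping list, -0.29 to 0.64 in the methionine cycle list, -0.35 to 0.20 in the exon junction list and -1.32 to 0.18 in the VCP list. The genes named from each list are the 2 with its smallest p-values over both knockouts. Rbm8a, which codes for the Y14 protein of the exon junction core, was at 65.0 ± 2.27 CPM in wild-type and 51.0 ± 2.14 CPM in Ms4a6c KO mice (SD, n = 3), a log2 fold change of -0.35 (SE 0.06) with an edgeR adjusted p of 0.0619. It passed with edgeR's default filter, at an adjusted p of 0.0452. Capzb, the beta subunit that pairs with Capza1, had a log2 fold change of -0.17 (SE 0.06, edgeR adjusted p = 0.325), and plain library scaling turned it to 0.0033. Mtr, the methionine synthase, had 0.16 (SE 0.05, edgeR adjusted p = 0.285), and Nxf1, the messenger RNA export receptor, 0.20 (SE 0.07, edgeR adjusted p = 0.376).

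The other named genes had their smallest p in the Ms4a cluster KO, and both genes named from the VCP list are among them. Gsn, the actin-severing protein gelsolin, had a log2 fold change of 0.14 (SE 0.06), Bhmt, which remethylates homocysteine, 1.24 (SE 0.47), and the VCP partners Atxn3 and Plaa -0.18 (SE 0.07) and -0.14 (SE 0.05). All 4 had an edgeR adjusted p of 0.968.

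For position, the neighbours of the 9 genes were taken, 10 tested genes to each side of each, or 160 in all. In the Ms4a6c KO, 2 of them, or 1.25%, passed an adjusted p of 0.05 in edgeR, where 0.435% of all tested genes did. DESeq2 called 10 of the 160, where it called 1.84% of the 18631 genes to which it gave an adjusted p. How many of the 160 were given one was not counted. At an unadjusted p under 0.05 there were 31, or 19.4%, where 10.5% of all tested genes did. Slc16a1, which codes for the monocarboxylate transporter MCT1, lies near Capza1 at chr3:104638668-104658462. It rose from 5.72 ± 0.0759 to 14.0 ± 0.690 CPM (SD, n = 3), a log2 fold change of 1.29 (SE 0.15, edgeR adjusted p = 0.00287), and it passed under every alternative that was run. Map1lc3a, an autophagy gene near Ahcy, fell from 160 ± 2.71 to 124 ± 8.80 CPM (SD, n = 3), a log2 fold change of -0.36 (SE 0.06, edgeR adjusted p = 0.0410), and did not pass under 9 of the alternatives, among them the removal of any single mouse of either group.

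Ahcy and Gm14226 share their neighbours, and 10 of these 20 genes had an unadjusted p under 0.05 in the Ms4a6c KO. Around Vcp it was 6 of 20, around Rnps1-ps 5 and around Capza1 4, while around each of the others it was 1 or 2. In the Ms4a cluster KO, 0 of the 160 passed in edgeR, where 0.0258% of all tested genes did, and 7 had an unadjusted p under 0.05, or 4.38%, where 4.93% of all tested genes did. Whether position has a part in the levels of the 9 genes was not tested.

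For each of the 9 genes, the gene most like it over the 9 mice was sought by Pearson's r of log2 CPM among 16539 genes. These values describe 9 points of which 3 stand apart, and they carry no test. Capza1, Ahcy and Vcp had the same closest gene, Snapc1, with r of 0.994, 0.993 and 0.983. Capza1-ps1 and Vcp-rs were closest to Rps2-ps10, with r of 0.999 and 0.998, followed by Rps7-ps3, and both are named as ribosomal protein pseudogenes. Gm4737 was closest to Miat, with r of 0.992, and Rnps1-ps to Ppip5k1, with r of 0.986. Second were G2e3 for Capza1 and Acp1 for Ahcy, each with r of 0.991. Hist1h2al was second for Gm4737, with r of 0.987, and Tbc1d2 for Rnps1-ps, with r of 0.979. Gm14226 and Rnps1 were closest to Cd59a, with r of 0.993 and 0.987. Rnps1 was followed by Gng13, an olfactory neuron gene at 179 to 203 CPM in Ms4a6c KO mice and 347 to 371 CPM in wild-type mice. The other mature neuron markers looked at were not lower. Omp, Cnga2, Gnal and Adcy3 overlapped between these groups. Stoml3 was higher, at 2212 to 2378 CPM in Ms4a6c KO mice and 1802 to 2201 CPM in wild-type mice.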

How the data were processed

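RNA was taken from the main olfactory epithelium of 9 mice. Directional poly-A libraries were prepared by the authors, who aligned paired-end reads with STAR 2.6.1, quantified them with RSEM 1.3.1 on GENCODE M25 (GRCm38) and deposited expected counts per gene, without normalization; they compared groups with DESeq2 1.30.1. Here the expected counts were rounded, the 23225 genes with at least 10 counts over the 9 mice were scaled by TMM, and groups, taken from the sample labels, were compared in edgeR 4.0.16 (quasi-likelihood F test, R 4.3.3) with all mice in 1 model and p-values adjusted by Benjamini-Hochberg. DESeq2 1.42.0 was an alternative. Standard errors come from the log2 fold change and the test's F. The procedure was tested on simulated data. Transcripts of GENCODE M21 were aligned with BLAST 2.17.0, using the longest coding transcript of a gene that has one, a choice made after the data were seen; 99.6% of genes were matched by transcript, and Capza1-ps1 and Rnps1-ps are named Gm3608 and Gm9825 there. Permutation tests used scipy 1.17.1.

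The 9 genes and the lists of partners were chosen with earlier results of these data known. Genes named are the 9, the targeted gene, and the listed genes that passed or else the 2 with the smallest p per list. Neighbours that passed, other near-identical copies, and the 2 genes most like each of the 9 are also named. Omp, Cnga2, Gnal, Adcy3, Stoml3 and Gng13 are cell type markers, and Bpifb9b was named for its share of counts. The labels give each mouse a replicate number; whether the mice came from separate litters is not stated.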

Additional observations from a re-analysis of the deposited data

How the results depend on the processing

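With no filter, with edgeR's default one, with only the 2 genotypes compared, with size factors from DESeq2 and with DESeq2 itself, the sums of parent and copy in the Ms4a6c KO kept their direction and moved by less than the spread between mice. Plain library size gave sums of -0.18 for Capza1, 0.23 for Ahcy with Gm4737 and Gm14226, -0.0881 for Rnps1 and 0.0181 for Vcp (log2), and Atxn3 0.11, Capzb 0.0033, Gsn 0.12 and Plaa 0.12; in the Ms4a cluster KO it gave Vcp 0.0123 and the Vcp sum 0.0112. Without Gm14226 the Ahcy sum was 0.24 in the Ms4a6c KO and -0.0235 in the Ms4a cluster KO, and the copy share differed from wild-type by 71.5 percentage points in place of 59.8. With 50-base windows, 82.06% of Capza1-ps1, 90.36% of Gm4737, 72.17% of Rnps1-ps and 83.24% of Vcp-rs was found unchanged in the parent. Of the 9 genes, 6 passed in the Ms4a6c KO with plain library size in place of 9. The exon junction list had 1 gene past the threshold with edgeR's default filter, no filter and DESeq2, and 0 otherwise. Neighbours past the threshold in the Ms4a6c KO numbered 1 with plain library size and with the 2 genotypes alone, 10 with DESeq2, 3 with no filter, and from 1 to 3 with 1 mouse left out. The causes of these shifts were not tested.

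With 1 mouse left out, values in the Ms4a cluster KO that changed sign or reached 0 ranged from -0.0741 to 0.0289 for Ahcy, -0.0277 to 0.0734 for the Ahcy sum, -0.0518 to 0.0145 for Capzb, -0.15 to 0.54 for Gm4737, 0 to 2.43 for Gm5920, -0.0112 to 0.0904 for Nxf1, -0.00957 to 0.0741 for Rnps1, -0.0123 to 0.0740 for the Rnps1 sum, -0.997 to 0.0425 for Rnps1-ps, -0.0204 to 0.0246 for Vcp, -0.0214 to 0.0229 for the Vcp sum and -0.278 to 0.0773 for Vcp-rs (log2), and from -0.123 to 0.0613 percentage points for the Vcp-rs share; none of these passed the threshold in any of these fits. In the Ms4a6c KO the sums ranged from -0.38 to -0.35 for Capza1, -0.30 to -0.24 for Rnps1 and -0.19 to -0.13 for Vcp. Ahcy with Gm4737 and Gm14226 ranged there from 0.02 to 0.08. Both Ahcy sums of this paragraph include Gm14226. The sum of Ahcy with Gm4737 alone was not refitted with a mouse left out.

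Mice with the same replicate number did not deviate together, with correlations of -0.0682, -0.106 and 0.0208 between Ms4a6c KO and wild-type and -0.577, -0.307 and -0.194 between Ms4a cluster KO and wild-type over 16570 genes, so the numbers were not taken to pair the mice. With the replicate number as a block, 71 genes in place of 101 passed in the Ms4a6c KO and 2 in place of 6 in the Ms4a cluster KO, 1 neighbour passed in place of 2, 8 of the 9 genes in place of 9 passed in the Ms4a6c KO, and 0 of the 9 genes passed in the Ms4a cluster KO. Low counts limit Gm4737, at 2.6 to 19.4, and Rnps1-ps, at 0 to 11.91, in wild-type and Ms4a cluster KO mice.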
